A study of Arabidopsis thaliana with 24 samples.

Results

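The 40 genes described here belong to the WRKY family, one of the large families of plant transcription factors. They were picked by locus identifier out of the 28775 genes in the deposited expression table of *Arabidopsis thaliana* shoots, and no measured value is part of that rule. The list was nevertheless drawn up with earlier results of these data known. *WRKY53*, *WRKY54*, *WRKY70* and *WRKY75* were not on the list and are not described here. Expression was measured by RNA-seq in 24 libraries, in 8 groups of 3 plants, with polyadenylated RNA from the whole shoot of 1 plant in each library. The *nrt1.13* mutant and the Col-0 wild type were each sampled in 4 combinations of age, 25 or 16 days, and nitrate supply, 0.2 mM KNO3 for limiting and 2 mM KNO3 for ample nitrate. The *nrt1.13* line is 1 insertion allele, with a T-DNA in the fourth exon of the *NRT1.13* gene of the *NRT1/PTR* transporter family, and it was used without a complemented line in these libraries. All plants grew in hydroponic culture under 12 h of light, and the medium with 0.2 mM KNO3 was balanced for potassium with KCl. The labels count the days in one place from germination and in another from sowing.

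WRKY proteins bind short promoter elements called W boxes, which are common in the genes of immune receptors, hormone pathways and other WRKY factors. The family is divided by the number and type of its zinc fingers into group I, with a pair of WRKY domains, group II with its subgroups a to e, and group III. In leaves the family is known mainly for defence against pathogens downstream of MAP kinase cascades and salicylic acid, and members also act in heat, phosphate, abscisic acid and senescence responses. The comparisons below ask how these genes differed between limiting and ample nitrate, between older and younger shoots, and between *nrt1.13* and wild type.

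Values are CPM, the reads of a gene scaled to a common library total, and 2 CPM stood for 45.5 to 90.8 reads in the shallowest and the deepest library. A gene was tested if it had at least 2 CPM in all 24 libraries, which 15108 of the 28775 genes and 19 of the 40 WRKY genes did. These 19 were tested with limma on log2(CPM + 0.1) over all 15108 genes, a scale on which the change of low genes is understated, and a gene is named as called if its P, adjusted by the Benjamini-Hochberg method, was 0.05 or less. The 21 lower members were tested 1 by 1 with a two-sided exact permutation test within the 4 combinations of the other factors, where the smallest possible P was 1.25e-05. Since each plant was a library, the P values measure the spread among single plants. Whether plants of a group shared a hydroponic container is not given, so spread between containers may not be included. In RNA from whole shoots, fewer cells of a type and less RNA per cell cannot be told apart.

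The shoot label was borne out by *RBCS1A*, *LHCB1.3*, *RBCS3B* and *RCA*, which averaged 5288 to 20517 CPM, while the root genes *EXPA7*, *COBL9*, *CASP1* and *CASP2* averaged 0.00183 to 0.295 CPM. *NRT1.13* fell by 1.18 on the log2 scale in *nrt1.13* (SE 0.10, adjusted P = 9.55e-09, limma), with reads over the whole gene counted. Reads over genes numbered 23608279 to 46155689 in a library, and no pair of replicates was close enough to be 1 library deposited under 2 names. Among plants of 1 group, replicate 3 of 16-day wild type at 2 mM was the highest of its 3 plants for 26 of the 40 members, and replicate 2 was the lowest for 22.

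The level of the family in shoots spanned more than 3 orders of magnitude, and structural groups differed in how many members were well expressed. Divided by exon length, *WRKY11* (AT4G31550), a repressor of basal resistance, averaged 20.1 CPM per kb over the 24 plants. It was followed by *WRKY3* (AT2G03340) with 19.1 CPM per kb and *WRKY1* (AT2G04880) with 16.3 CPM per kb. In group I, 8 of 9 members passed the filter, namely *WRKY1*, *WRKY2* (AT5G56270), *WRKY3*, *WRKY4* (AT1G13960), *WRKY20* (AT4G26640), *WRKY25* (AT2G30250), *WRKY32* (AT4G30935) and *WRKY33* (AT2G38470), but not *WRKY26* (AT5G07100). In group IId, whose members carry a calmodulin-binding region, 6 of 7 passed, which were *WRKY7* (AT4G24240), *WRKY11*, *WRKY15* (AT2G23320), *WRKY17* (AT2G24570), *WRKY21* (AT2G30590) and *WRKY39* (AT3G04670), but not *WRKY74* (AT5G28650). These 14 genes averaged 3.80 to 20.1 CPM per kb.

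The listed genes of the other groups were low in most plants. Group IIa had *WRKY18* (AT4G31800) above the filter and *WRKY40* (AT1G80840) and *WRKY60* (AT2G25000) below it. Group IIb had *WRKY6* (AT1G62300) and *WRKY47* (AT4G01720) above it and *WRKY31* (AT4G22070) and *WRKY42* (AT4G04450) below. Group IIe had *WRKY22* (AT4G01250) above it and *WRKY29* (AT4G23550), *WRKY65* (AT1G29280) and *WRKY69* (AT3G58710) below. In group IIc only *WRKY57* (AT1G69310) of 8 passed, while *WRKY8* (AT5G46350), *WRKY28* (AT4G18170), *WRKY45* (AT3G01970), *WRKY48* (AT5G49520), *WRKY50* (AT5G26170), *WRKY51* (AT5G64810) and *WRKY71* (AT1G29860) did not. None of the 5 group III genes on the list passed, and these were *WRKY30* (AT5G24110), *WRKY38* (AT5G22570), *WRKY46* (AT2G46400), *WRKY55* (AT2G40740) and *WRKY62* (AT5G01900). These counts cover the listed genes only, not whole structural groups, and leave out *WRKY53*, *WRKY54*, *WRKY70* and *WRKY75*.

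**Figure D1:**
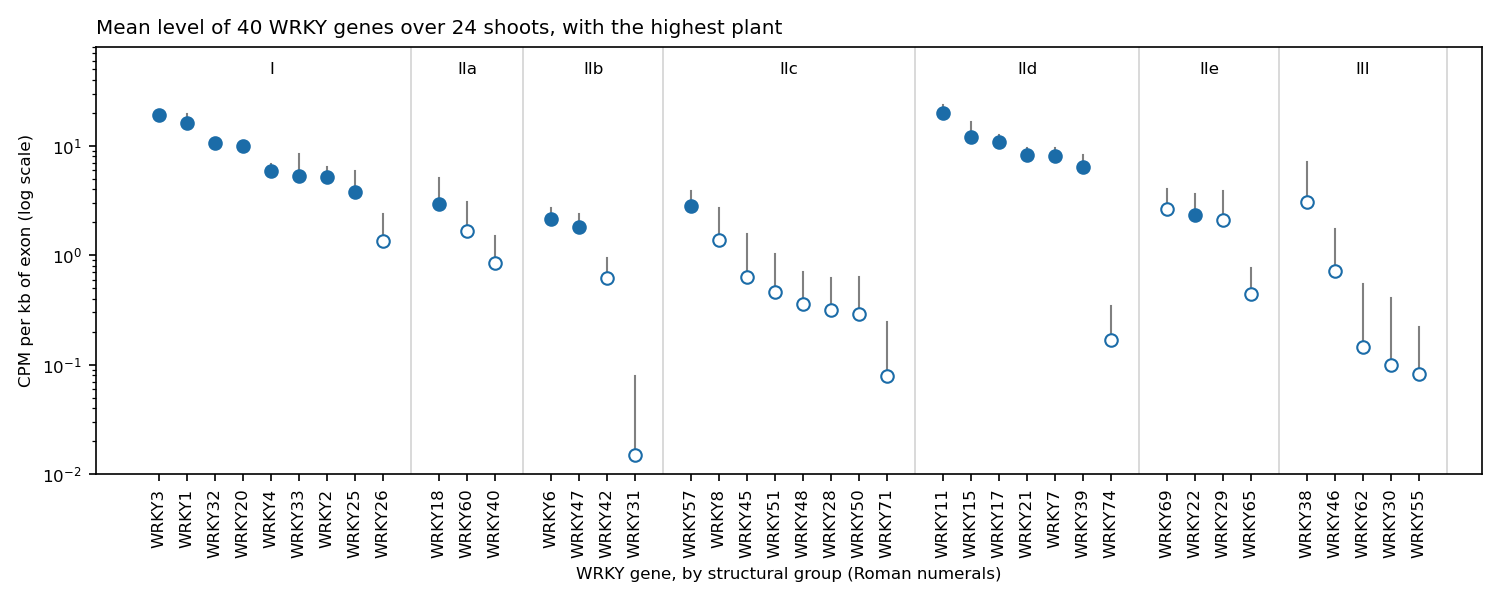
Mean level of each of the 40 WRKY genes over 24 shoots in CPM per kb of exon on a log axis, by structural group, with a line up to the highest plant, filled circles for genes with at least 2 CPM in all libraries and open circles for the rest. The means run from 0.0149 CPM per kb for *WRKY31* to 20.1 CPM per kb for *WRKY11*, and groups I and IId hold 14 of the 19 filled circles.

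At the low end, *WRKY31* had 3 reads or fewer in 22 of 24 libraries, *WRKY30* and *WRKY71* in 13 each, and *WRKY55* and *WRKY62* in 12 each. Of these genes a level near 0 is all that can be read. *WRKY38* was an exception among the members below the filter, with 3.07 CPM per kb and a rank of 15 of 40, because its level was between 0.577 and 9.31 CPM and dropped under 2 CPM in some groups only. Reads of genes that overlap on the opposite strand may be mixed for *WRKY1*, *WRKY2*, *WRKY4*, *WRKY29*, *WRKY33*, *WRKY40* and *WRKY69*, since the kit kept the strand, but whether counting used it is not given in the sources used here. Summed over the 40 genes, 25-day shoots had 312 to 340 CPM at 0.2 mM, against 345 to 371 CPM at 2 mM, which do not overlap. In 16-day shoots the sum was 358 to 378 CPM at 0.2 mM and 341 to 368 CPM at 2 mM, which overlap.

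The first comparison asked how limiting nitrate, 0.2 mM, differed from 2 mM over both genotypes and both days. Of the 19 members tested, 11 were called, with *WRKY39*, *WRKY57*, *WRKY47*, *WRKY7* and *WRKY17* higher and *WRKY33*, *WRKY25*, *WRKY18*, *WRKY11*, *WRKY15* and *WRKY4* lower at 0.2 mM. The background in this comparison was high, with 41.7% of all tested genes called, 21.6% higher and 20.2% lower, beside 57.9% of the members, 26.3% higher and 31.6% lower. The median log2 fold change was 0.01 over the members and 0.01 over all genes tested. *WRKY33* alone among the 19 also had a fold change of at least 1.8, a size that 0.41% of tested genes reached downwards.

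Below the filter, 6 of 21 members had an exact P of at most 0.05 for nitrate, among 63 such tests. *WRKY38*, *WRKY50*, *WRKY46*, *WRKY51* and *WRKY62* were lower at 0.2 mM and *WRKY29* was higher. For *WRKY62*, with 3 reads or fewer in 12 of 24 libraries, only a level near 0 can be read. With edgeR on the recovered reads of 19376 genes, a fit added after the data were seen, 14 of 37 members were called, 6 higher and 8 lower, beside 36% of all genes, 19.6% higher and 16.4% lower. *WRKY38*, *WRKY50*, *WRKY46* and *WRKY29* were among the 14, while *WRKY51* and *WRKY62* were not. These 4 are 22.2% of the 18 low members in that fit, beside 17.9% of all 4268 genes below the filter in it, and the share of low genes that pass the exact test was not computed.

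The 2 days differed in this response. In 25-day shoots 7 of 19 members were called between 0.2 and 2 mM in *nrt1.13*, 1 higher and 6 lower, beside 40% of all genes, 19.1% higher and 20.9% lower. In 25-day wild type 6 were called, 1 higher and 5 lower, beside 39% of all genes, 18.9% higher and 20.1% lower. *WRKY1* was called in *nrt1.13* only, and that call was lost under several settings, as given below. *WRKY33* was again the member past a fold change of 1.8 in both genotypes, as were 1.89% of all genes downwards in *nrt1.13* and 1.99% in wild type. In 16-day shoots no member was called in either genotype, with 2.83% of all genes called in *nrt1.13* and 6.2% in wild type. At an unadjusted P of at most 0.05 there were 2 members in 16-day *nrt1.13* and 4 in wild type, which is 10.5% and 21.1% of the members, beside 20.9% and 23.5% of all genes at the same limit. By edgeR, 0 of 37 members were called in 16-day *nrt1.13* and 1, *WRKY29*, in 16-day wild type, beside 1.51% and 4.56% of all genes.

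The difference between the days was tested itself, as the nitrate effect at 25 days minus that at 16 days. For 6 of 19 members this difference was called, all with a lower value, beside 47.1% of all genes, 21.7% higher and 25.4% lower. They were *WRKY33*, *WRKY25*, *WRKY11*, *WRKY15*, *WRKY1* and *WRKY3*, of which *WRKY33* also passed a fold change of 1.8, as did 2.13% of all genes downwards. By edgeR, 7 of 37 members were called for this difference and all were lower, beside 38.9% of all genes, 20% higher and 18.9% lower, and below the filter these were *WRKY38*, *WRKY40* and *WRKY45*.

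**Figure D2:**
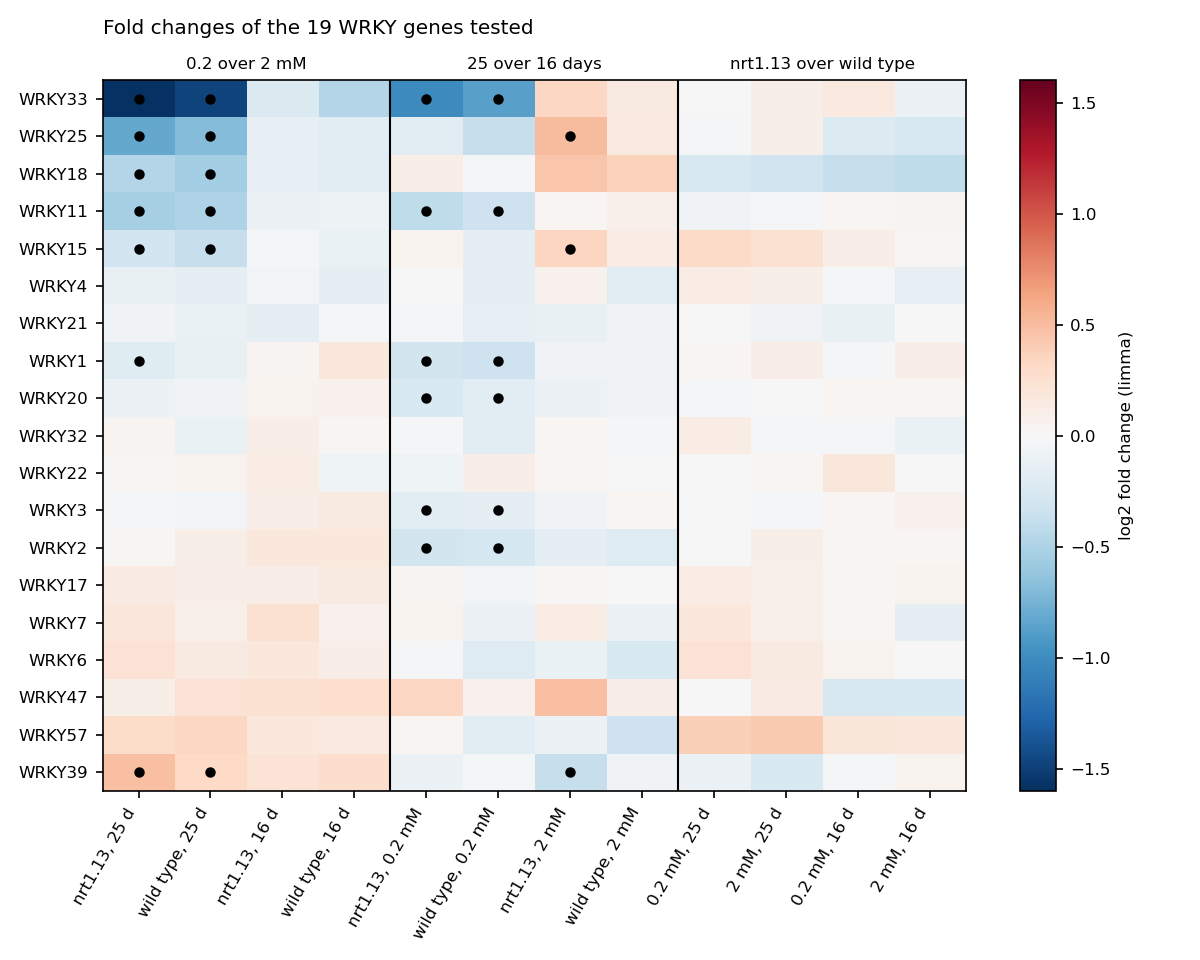
Fold changes (log2, limma) of the 19 WRKY genes tested, with genes in rows, ordered by the mean nitrate effect, and 12 single comparisons in columns, and black dots for an adjusted P of at most 0.05. Dots gather in the 25-day nitrate columns, 7 in *nrt1.13* and 6 in wild type, and in the day columns at 0.2 mM, 6 in each genotype, while the 16-day nitrate columns and the 4 genotype columns have none.

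Among group I, *WRKY33* changed by the largest amount of the 19 genes tested. It is a factor for resistance to necrotrophic fungi that drives camalexin synthesis, is phosphorylated by MPK3 and MPK6, and is held by MPK4 through MKS1. At 25 days it had 4.69, 4.62 and 6.32 CPM in *nrt1.13* at 0.2 mM, against 17.2, 13.7 and 16.3 CPM in *nrt1.13* at 2 mM. In wild type of that age it had 7.51, 5.12 and 3.57 CPM at 0.2 mM, against 15.9, 13.4 and 14.6 CPM at 2 mM. All 6 plants at 0.2 mM were far below all 6 at 2 mM, and the genotypes overlapped at each supply.

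At 16 days *WRKY33* had 10.6, 10.2 and 10.9 CPM in *nrt1.13* at 0.2 mM, against 13.1, 12.3 and 11.97 CPM at 2 mM. In 16-day wild type it had 9.27, 8.92 and 10.4 CPM at 0.2 mM, against 14.85, 11.8 and 13.2 CPM at 2 mM. The supplies again did not overlap, but the gap was small, with a mean of 10.05 ± 0.777 CPM at 0.2 mM and 12.9 ± 1.12 CPM at 2 mM (SD, n = 6 plants each). At 25 days the means were 5.31 ± 1.40 CPM and 15.2 ± 1.51 CPM, so that the mean at 2 mM was 2.86 times that at 0.2 mM, against 1.28 times at 16 days.

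In the fit, *WRKY33* fell by 0.94 on the log2 scale at 0.2 mM over all conditions (SE 0.08, adjusted P = 1.16e-09, limma), in 12 of 12 plants. Here and below, such a count gives the plants on that side of the mean of the group they were compared with. The other factors were the same in both groups, and plants were not paired. At 25 days the log2 fold change was -1.58 in *nrt1.13* and -1.48 in wild type, and both were called. At 16 days it was -0.23 in *nrt1.13* (adjusted P = 0.432) and -0.47 in wild type (adjusted P = 0.0815), neither called. The difference of the 25-day from the 16-day effect was -1.18 (adjusted P = 1.85e-06, limma). The calls at 25 days, over all conditions and for the difference between the days were kept in 24 of 24 fits with 1 library left out.

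*WRKY25*, which acts with *WRKY26* and *WRKY33* in the heat response, was also lower at 0.2 mM, by a smaller amount. In 25-day *nrt1.13* it had 4.66, 4.93 and 5.52 CPM at 0.2 mM, against 7.94, 8.59 and 10.5 CPM at 2 mM. In wild type it had 5.97, 4.06 and 5.59 CPM at 0.2 mM, against 8.08, 7.99 and 9.05 CPM at 2 mM. The supplies stood apart in both genotypes at this age. At 16 days they overlapped, with 4.62 to 8.57 CPM at 0.2 mM and 5.60 to 8.25 CPM at 2 mM over both genotypes. *WRKY25* fell by 0.45 at 0.2 mM over all conditions (SE 0.08, adjusted P = 6.99e-05, limma), and its nitrate effect at 25 days minus 16 days was -0.61 (adjusted P = 0.00336).

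*WRKY26*, the third of these heat factors, had 1.45 to 3.05 CPM at 0.2 mM with a median of 2.02, and 1.28 to 3.74 CPM at 2 mM with a median of 2.21. The ranges overlapped almost fully (log2 difference -0.07, exact permutation P = 0.618). *WRKY3* and *WRKY4*, both of which contribute to resistance against necrotrophs, changed little. *WRKY4* fell by 0.12 at 0.2 mM (adjusted P = 0.0463, limma), a call that held in 9 of 24 fits with 1 library left out. *WRKY4* ranged over 12.6 to 17.1 CPM with a median of 14.9 at 0.2 mM, and over 13.8 to 17.7 CPM with a median of 15.9 at 2 mM.

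*WRKY1*, known from nitrogen and light signalling, had opposite small differences at the 2 ages. At 25 days it had 29.6, 29.5 and 32.2 CPM in *nrt1.13* at 0.2 mM, against 34.6, 34.1 and 35.7 CPM at 2 mM, with no overlap. This decrease was called (adjusted P = 0.0445, limma), and the call was kept in 16 of 24 fits with 1 library left out. The call was lost without a filter, without the trend, under median-ratio or quantile scaling and by edgeR. In 25-day wild type it had 27.2, 30.8 and 31.6 CPM at 0.2 mM, against 32.9, 31.2 and 32.8 CPM at 2 mM, with an overlap of 1 plant. At 16 days its mean was 37.5 ± 2.87 CPM at 0.2 mM and 34.9 ± 2.39 CPM at 2 mM (SD, n = 6 plants each). The nitrate effect at 25 days minus 16 days was -0.26 (adjusted P = 0.00741, limma), while the average over the days was -0.03 and was not called. *WRKY3* likewise had a difference of -0.16 between the days (adjusted P = 0.0295), which was not called under median-ratio or quantile scaling. Opposite *WRKY1* lies AT2G04890 with a mean of 7.79 CPM, and its reads may be included.

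Of the remaining group I genes, *WRKY2*, a factor for pollen and embryo polarity, and *WRKY20* and *WRKY32* were not called for nitrate. *WRKY2* had a log2 fold change of 0.11 (adjusted P = 0.0700, limma), *WRKY20* of -0.00 and *WRKY32* of 0.01.

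**Figure D3:**
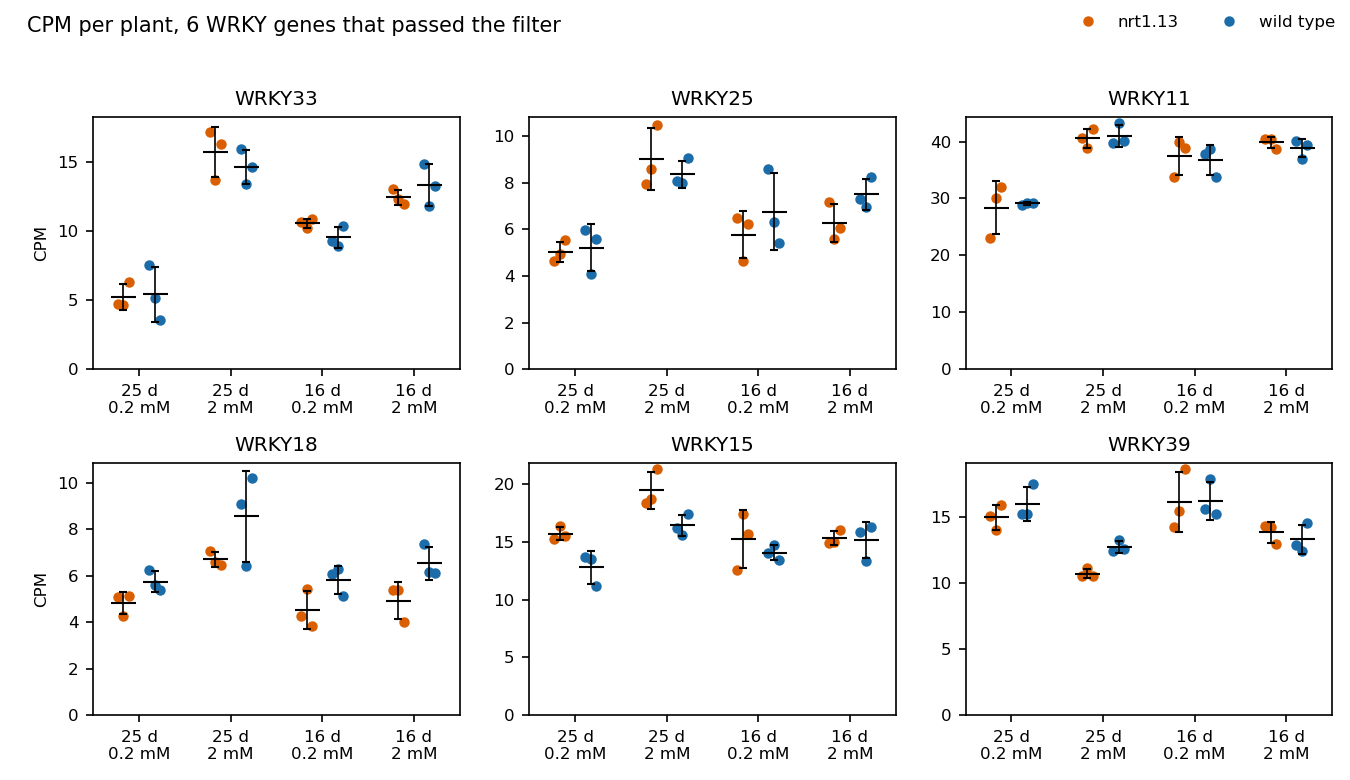
CPM of 6 WRKY genes that passed the filter, by day and nitrate supply, with 1 point per plant, *nrt1.13* in orange on the left and wild type in blue on the right of each pair, and bars for the mean ± SD of 3 plants. At 25 days the 6 plants at 0.2 mM lie below the 6 at 2 mM for *WRKY33*, *WRKY25*, *WRKY11* and *WRKY18*, and above them for *WRKY39*.

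Genes that act ahead of these WRKY factors were taken as a list of 17 receptors, MAP kinase cascade members and WRKY partners, of which 16 were tested. The list was chosen with earlier results of these data known. At 0.2 mM 12 of the 16 fell and 1 rose over all conditions, with a median log2 fold change of -0.36. Among all genes tested, 20.2% were called lower and 21.6% higher in this comparison. *SIB1*, a partner that stimulates DNA binding of *WRKY33* protein, fell by 1.32 (SE 0.10, adjusted P = 1.25e-10, limma), and its relative *SIB2* fell by 0.55. The kinase genes *MKK1* and *MPK3* fell by 0.90 and 0.62. Their sum in 25-day shoots was 280 to 325 CPM at 0.2 mM and 458 to 502 CPM at 2 mM, without overlap, and in 16-day shoots it was 403 to 456 CPM at 0.2 mM and 457 to 479 CPM at 2 mM. For 12 of the 16 the nitrate effect differed between the days, beside 47.1% of all genes. The value was lower for 11 of them, beside 25.4% of all genes. Known targets of members were mostly near the detection limit, and both that could be tested, *PHO1* and *ICS1*, were not called for nitrate, day or genotype. The others included *PAD3*, the camalexin gene activated by *WRKY33*, with a mean of 0.818 CPM, and *FRK1*, the flagellin response gene downstream of *WRKY22* and *WRKY29*, with 0.344 CPM.

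In group III, *WRKY38* had a larger change with nitrate than any member above the filter. Together with *WRKY62* it is a negative regulator of basal defence that depends on salicylic acid. In 25-day *nrt1.13* it had 1.142, 2.38 and 1.51 CPM at 0.2 mM, against 9.31, 7.60 and 7.31 CPM at 2 mM. Wild-type plants of 25 days had 0.935, 0.807 and 0.577 CPM at 0.2 mM, against 8.88, 5.79 and 9.14 CPM at 2 mM. Every plant at 2 mM was well above every plant at 0.2 mM, and at 0.2 mM the 3 *nrt1.13* plants were all above the 3 wild-type plants.

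At 16 days the 2 supplies overlapped for *WRKY38*. It had 2.45, 2.81 and 4.25 CPM in *nrt1.13* at 0.2 mM, against 4.70, 4.20 and 3.23 CPM at 2 mM. In 16-day wild type it had 2.55, 3.37 and 1.70 CPM at 0.2 mM, against 3.28, 4.19 and 4.05 CPM at 2 mM. Over both genotypes the mean at 2 mM was 6.54 times that at 0.2 mM at 25 days, but 1.38 times at 16 days. *WRKY38* was lower at 0.2 mM by a log2 difference of -1.61 over all conditions (exact permutation P = 0.000112), in 11 of 12 plants. By edgeR its fold change was -1.65 (adjusted P = 2.56e-10), and the nitrate effect at 25 days minus 16 days was -2.34 (adjusted P = 8.71e-08), both called in 24 of 24 fits with 1 library left out.

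*WRKY46*, a group III gene induced by salicylic acid and osmotic stress, was low throughout. At 25 days it had 1.17, 0.792 and 0.444 CPM in *nrt1.13* at 0.2 mM, against 1.52, 1.22 and 1.09 CPM at 2 mM. Wild type of that age had 1.39, 0.558 and 0.708 CPM at 0.2 mM, against 2.33, 1.11 and 1.96 CPM at 2 mM. Over both genotypes the supplies overlapped at either age, with most plants at 2 mM the higher ones, and in *nrt1.13* at 16 days they stood apart at 0.456 to 0.630 CPM and 0.748 to 0.852 CPM. Its log2 difference was -0.57 at 0.2 mM (exact permutation P = 0.00426), in 11 of 12 plants, and edgeR gave -0.60 (adjusted P = 0.0160). *WRKY62* was at or near 0, with a median of 0.0640 CPM at 0.2 mM and 0.181 CPM at 2 mM (exact permutation P = 0.0380), and edgeR did not call it (adjusted P = 0.0656). *WRKY30* and *WRKY55*, which is linked to senescence, had exact P values of 0.534 and 0.381 for nitrate at means of 0.127 and 0.0981 CPM.

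In a list of 12 salicylic acid genes 7 were tested, and all 7 fell at 0.2 mM, beside the 20.2% of all genes that were called lower, among them *SARD1* by 1.04, *PAD4* by 0.81, *PR5* by 0.66 and *EDS1* by 0.58 on the log2 scale. Summed over the 12 genes, 25-day shoots had 67.2 to 88.7 CPM at 0.2 mM and 124 to 159 CPM at 2 mM, and 16-day shoots had 88.3 to 100.4 CPM at 0.2 mM and 106 to 127 CPM at 2 mM. The sums did not overlap at either age. For 6 of the 7 tested genes the nitrate effect differed between the days with a lower value, beside 25.4% of all genes. In a list of 19 genes induced by touch and wounding, 5 were tested and 3 fell at 0.2 mM, beside the same 20.2% of all genes. The 3 were *TCH3* by 0.85, *CAF1A* by 0.60 and *TCH4* by 0.17. Summed over the 19 genes, 25-day shoots had 60.8 to 90.4 CPM at 0.2 mM and 112 to 142 CPM at 2 mM. In 16-day shoots the sum was 82.1 to 105 CPM at 0.2 mM and 79.1 to 107 CPM at 2 mM. Both lists were likewise chosen with earlier results of these data known. The part of salicylic acid signalling or of handling in the WRKY values was not tested.

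**Figure D4:**
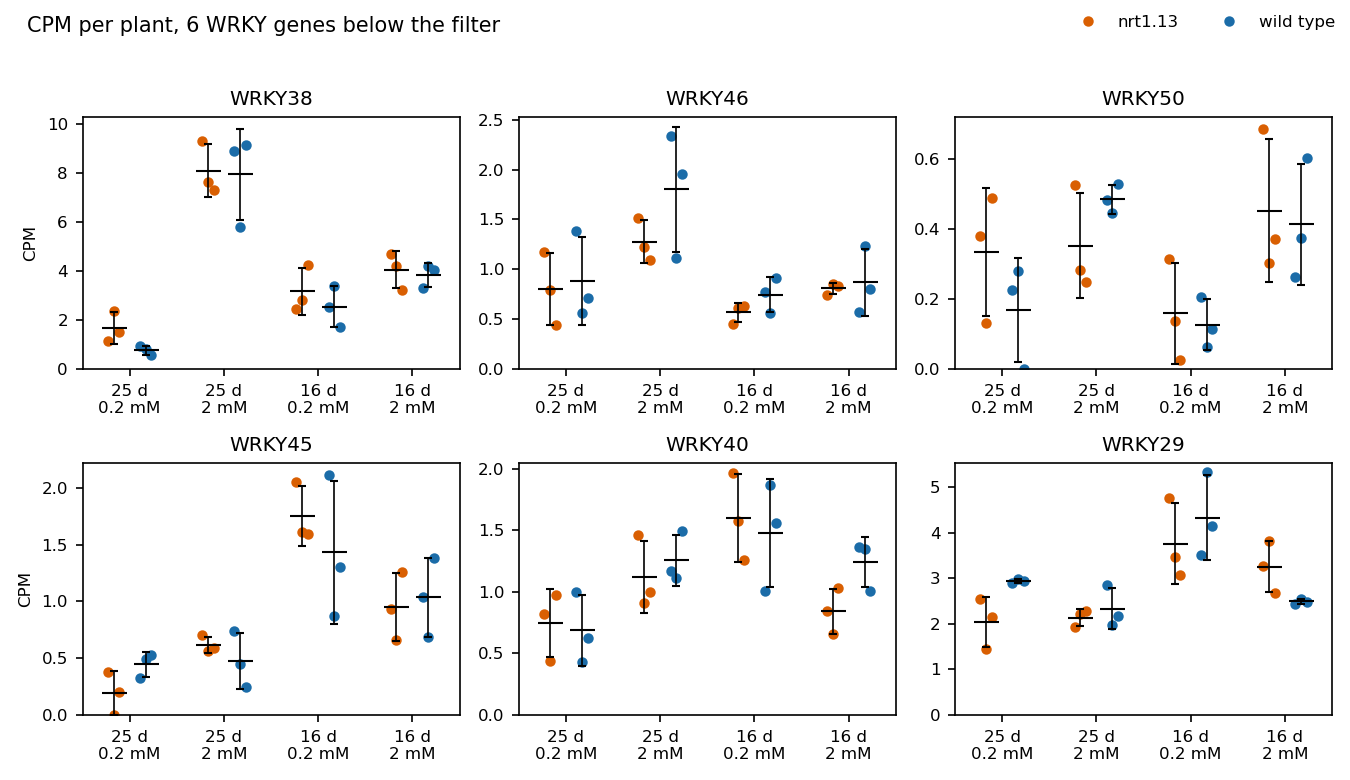
CPM of 6 WRKY genes below the filter, drawn as in the plot of tested genes, with 1 point per plant, *nrt1.13* in orange left of wild type in blue, and the mean ± SD of 3 plants. *WRKY38* separates the supplies at 25 days, at 0.577 to 2.38 CPM against 5.79 to 9.31 CPM, and *WRKY45* is higher at 16 days than at 25 days.

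In group IIc the low members split between those with and without a nitrate difference. *WRKY50*, which with *WRKY51* takes part in the repression of jasmonate responses by salicylic acid, was named after its values were seen. At 16 days it had 0.314, 0.137 and 0.0274 CPM in *nrt1.13* at 0.2 mM, against 0.685, 0.302 and 0.371 CPM at 2 mM. In wild type it had 0.206, 0.0624 and 0.114 CPM at 0.2 mM, against 0.264, 0.373 and 0.604 CPM at 2 mM. Plants at 0.2 mM were lower, with a slight overlap in *nrt1.13* and none in wild type, and at 25 days the ranges were 0 to 0.488 CPM at 0.2 mM and 0.250 to 0.528 CPM at 2 mM. The log2 difference of *WRKY50* was -0.96 (exact permutation P = 0.00122), and edgeR gave -1.16 (adjusted P = 0.00972), at 3 reads or fewer in 4 libraries. *WRKY51* had a log2 difference of -0.67 (exact permutation P = 0.0187), which edgeR did not call (adjusted P = 0.0647).

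*WRKY45*, an activator of the phosphate transporter gene *PHT1;1* in *Arabidopsis*, had opposite nitrate differences at the 2 ages in *nrt1.13*. In 25-day *nrt1.13* it had 0.381, 0 and 0.200 CPM at 0.2 mM, against 0.700, 0.567 and 0.593 CPM at 2 mM. The 25-day wild type had 0.322, 0.496 and 0.525 CPM at 0.2 mM, against 0.740, 0.445 and 0.249 CPM at 2 mM. The supplies stood apart in *nrt1.13*, where the plants at 0.2 mM held only 12, 0 and 9 reads. In wild type the supplies overlapped, with a log2 difference of -0.01. At 16 days it had 2.05, 1.61 and 1.59 CPM in *nrt1.13* at 0.2 mM, against 0.935, 0.659 and 1.26 CPM at 2 mM. In wild type of 16 days it had 2.11, 0.874 and 1.31 CPM at 0.2 mM, against 1.04, 0.690 and 1.38 CPM at 2 mM. Here 0.2 mM was higher, again apart in *nrt1.13* and overlapping in wild type. Averaged over both genotypes, the difference between the days was -1.48 by edgeR (adjusted P = 0.0139).

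*WRKY57*, known from drought tolerance and jasmonate-induced senescence, was the 1 tested gene of group IIc. It ranged over 4.71 to 7.96 CPM with a median of 6.42 at 0.2 mM, and over 3.79 to 6.54 CPM with a median of 5.34 at 2 mM. The supplies overlapped except in 25-day *nrt1.13*, where 0.2 mM was higher throughout. *WRKY57* rose by 0.24 at 0.2 mM (SE 0.07, adjusted P = 0.00788, limma), in 11 of 12 plants. *WRKY8*, a salt response factor, had 1.29 to 3.68 CPM with a median of 1.91 at 0.2 mM and 1.22 to 2.33 CPM with a median of 1.72 at 2 mM (exact permutation P = 0.317). *WRKY28*, *WRKY48* and *WRKY71* had exact permutation P values of 0.204, 0.128 and 0.720 for nitrate.

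In group IIa, *WRKY18*, *WRKY40* and *WRKY60* encode interacting factors that repress defence and abscisic acid genes and are induced by pathogens. *WRKY18* had 5.07, 4.27 and 5.12 CPM in 25-day *nrt1.13* at 0.2 mM, against 7.06, 6.58 and 6.47 CPM at 2 mM. In wild type at 25 days it had 6.26, 5.58 and 5.40 CPM at 0.2 mM, against 9.07, 6.401 and 10.2 CPM at 2 mM. The supplies stood apart in each genotype at 25 days and overlapped at 16 days, where all plants lay between 3.84 and 7.36 CPM. *WRKY18* fell by 0.33 at 0.2 mM over all conditions (SE 0.08, adjusted P = 0.00147, limma). Its log2 fold changes at 25 days were -0.47 in *nrt1.13* and -0.54 in wild type. The call in *nrt1.13* was lost without replicate 1 at 2 mM or replicate 2 at 0.2 mM, and that in wild type without replicate 3 at 2 mM. Its difference between the days, -0.36, was not called (adjusted P = 0.0587).

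*WRKY40* was low and its nitrate difference turned between the ages. At 25 days it had 0.825, 0.440 and 0.976 CPM in *nrt1.13* at 0.2 mM, against 1.46, 0.907 and 0.999 CPM at 2 mM. In 25-day wild type it had 1.00, 0.434 and 0.629 CPM at 0.2 mM, against 1.17, 1.11 and 1.49 CPM at 2 mM. These plants overlapped in *nrt1.13* and stood apart in wild type, with 0.2 mM lower. At 16 days it had 1.97, 1.58 and 1.26 CPM in *nrt1.13* at 0.2 mM, against 0.841, 0.659 and 1.03 CPM at 2 mM. In 16-day wild type it had 1.00, 1.87 and 1.56 CPM at 0.2 mM, against 1.37, 1.35 and 1.01 CPM at 2 mM. Here 0.2 mM was higher in *nrt1.13* without overlap, and the wild-type plants overlapped. The difference between the days was -1.26 by edgeR (adjusted P = 0.00345), while the average over both days was -0.09 (exact permutation P = 0.681). Opposite *WRKY40* lies AT1G80850 with a mean of 12.2 CPM, against 1.12 CPM for *WRKY40*, so that reads of that gene could weigh on these values. *WRKY60* had medians of 2.60 CPM at 0.2 mM and 2.82 CPM at 2 mM. Its log2 difference, taken within genotype and day, had the opposite sign at 0.17 (exact permutation P = 0.208).

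In group IId, *WRKY11* and *WRKY39* moved in opposite directions. *WRKY11* had 23.1, 30.0 and 32.0 CPM in 25-day *nrt1.13* at 0.2 mM, against 40.7, 38.8 and 42.2 CPM at 2 mM. Wild-type plants of 25 days had 28.9, 29.3 and 29.3 CPM at 0.2 mM, against 39.8, 43.3 and 40.1 CPM at 2 mM. All 6 plants at 0.2 mM were below all 6 at 2 mM. At 16 days the supplies overlapped, at 33.7 to 39.9 CPM for 0.2 mM and 37.0 to 40.4 CPM for 2 mM. *WRKY11* fell by 0.30 at 0.2 mM (SE 0.04, adjusted P = 4.64e-06, limma), and its effect at 25 days minus 16 days was -0.43 (adjusted P = 0.000265).

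*WRKY39*, which takes part in the heat response, had 15.0, 14.0 and 15.9 CPM in 25-day *nrt1.13* at 0.2 mM, against 10.5, 11.1 and 10.5 CPM at 2 mM. Wild type of that age had 15.2, 15.2 and 17.4 CPM at 0.2 mM, against 12.4, 13.2 and 12.6 CPM at 2 mM. The supplies stood apart, with 0.2 mM higher. At 16 days the ranges overlapped slightly, at 14.2 to 18.6 CPM for 0.2 mM and 12.4 to 14.5 CPM for 2 mM. *WRKY39* rose by 0.32 at 0.2 mM (SE 0.05, adjusted P = 4.87e-06, limma), in 12 of 12 plants, and its difference between the days, 0.15, was not called (adjusted P = 0.203). Its 25-day fold changes were 0.48 in *nrt1.13* and 0.32 in wild type, and the wild-type call was lost without replicate 3 of wild type at 0.2 mM.

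*WRKY17*, the close relative of *WRKY11* with the same role in basal resistance, did not share its direction. Its medians were 17.5 CPM at 0.2 mM and 16.02 CPM at 2 mM, and it rose by 0.12 (adjusted P = 0.0251, limma). *WRKY7* rose by 0.14 (adjusted P = 0.0126), with 15.4 to 20.7 CPM and a median of 18.1 at 0.2 mM, and 14.5 to 18.5 CPM and a median of 16.5 at 2 mM. *WRKY15*, a gene of oxidative stress and leaf growth, fell by 0.20 (adjusted P = 0.00314), with 11.2 to 17.5 CPM and a median of 14.4 at 0.2 mM, and 13.4 to 21.3 CPM and a median of 16.1 at 2 mM. Over all plants the supplies overlapped for the 3 genes, while at 25 days those of *WRKY15* stood apart in each genotype. The difference between the days for *WRKY15*, -0.27, was called (adjusted P = 0.0341) but lost its call without a filter and under 3 other settings. *WRKY21* was not called (log2 fold change -0.09), and *WRKY74* had an exact permutation P of 0.643.

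Groups IIb and IIe hold *WRKY6* and *WRKY42*, repressors of the phosphate exporter gene *PHO1*, and *WRKY22* and *WRKY29*, which lie at the end of the flagellin MAP kinase cascade. *WRKY29* was higher at 0.2 mM, with 1.45 to 5.34 CPM and a median of 3.02, against 1.93 to 3.82 CPM and a median of 2.46 at 2 mM. Its log2 difference was 0.30 (exact permutation P = 0.0199), in 10 of 12 plants, and edgeR gave 0.33 (adjusted P = 0.0138). In wild type the supplies stood apart for *WRKY29* at both ages, with log2 differences of 0.75 at 16 days and 0.34 at 25 days. In *nrt1.13* they overlapped at both ages, with 0.19 at 16 days and -0.09 at 25 days. *WRKY22* was not called, with a fold change of 0.03. *WRKY47* rose by 0.21 (adjusted P = 0.0479, limma), a call kept in 12 of 24 fits with 1 library left out, and *WRKY6* at 0.16 was not called (adjusted P = 0.0889). *WRKY42* had medians of 1.52 CPM at 0.2 mM and 1.42 CPM at 2 mM (log2 difference -0.01, exact permutation P = 0.913), and *WRKY69* of 3.13 CPM and 3.21 CPM (log2 difference 0.07, exact permutation P = 0.534). These differences compare means within genotype and day, so their sign was opposite to that of the medians. *WRKY31* and *WRKY65* had exact permutation P values of 0.371 and 0.239.

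The second comparison set 25-day against 16-day shoots. Averaged over both genotypes and supplies, 9 of 19 members were called, 2 higher and 7 lower at 25 days, beside 62% of all genes, 25.3% higher and 36.7% lower. *WRKY47* and *WRKY18* were higher, and *WRKY33*, *WRKY2*, *WRKY1*, *WRKY11*, *WRKY20*, *WRKY39* and *WRKY3* were lower. The calls of *WRKY39* and *WRKY3* were lost under median-ratio scaling, quantile scaling and edgeR, at an adjusted P of up to 0.113 and 0.171. This is 47.4% of the members, below the share of all genes. By edgeR 15 of 37 members were called, 5 higher and 10 lower, beside 54.1% of all genes, 26.4% higher and 27.7% lower.

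The day difference also depended on the supply. At 0.2 mM the same count of 6 members fell in *nrt1.13* and in wild type, and in both these were *WRKY33*, *WRKY11*, *WRKY1*, *WRKY2*, *WRKY20* and *WRKY3*. Under median-ratio scaling, quantile scaling and edgeR the calls of *WRKY3* in both genotypes and of *WRKY20* in wild type were lost, and under quantile scaling those of *WRKY2* in both. Among all genes 50.7% were called in *nrt1.13* at 0.2 mM, 21.2% higher and 29.4% lower, and 54.3% in wild type, 23.2% higher and 31.2% lower. *WRKY33* passed a fold change of 1.8 in both, as did 2.45% of all genes downwards in *nrt1.13* and 3.55% in wild type. At 2 mM 3 members were called in *nrt1.13*, *WRKY25* and *WRKY15* higher and *WRKY39* lower, beside 9.7% of all genes, 3.82% higher and 5.88% lower. With 1 library left out these calls were kept in 14, 18 and 21 of 24 fits, and those of *WRKY25* and *WRKY15* were lost without a filter. In wild type at 2 mM none was called by limma, beside 7.02% of all genes, and 3 members (15.8%) had an unadjusted P of at most 0.05, beside 20.8% of all genes. By edgeR 1 of 37 members was called there, *WRKY38*, beside 5.76% of all genes.

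Within group I the decline at 0.2 mM was shared by genes called and not called for the average nitrate effect. *WRKY1* and *WRKY3*, not called for that average, were called for the difference of the nitrate effect between the days. *WRKY33* had log2 fold changes of -1.02 in *nrt1.13* and -0.87 in wild type at 0.2 mM, and of 0.33 and 0.14 at 2 mM, which were not called. *WRKY1* had -0.29 and -0.33 at 0.2 mM. Over all conditions *WRKY1* had 27.2 to 35.7 CPM with a median of 31.9 at 25 days and 32.3 to 40.6 CPM with a median of 35.1 at 16 days (log2 fold change -0.18, adjusted P = 0.000175, limma).

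*WRKY2* had 11.97 to 15.9 CPM with a median of 15.2 at 25 days, and 14.2 to 19.4 CPM with a median of 17.0 at 16 days. It fell by 0.23 (adjusted P = 0.000217, limma), in 12 of 12 plants, and the ages stood apart in 3 of 4 combinations of genotype and supply. *WRKY20* fell by 0.14 (adjusted P = 0.000496), also in 12 of 12 plants. Opposite *WRKY2* lies AT5G56280 with a mean of 25.0 CPM.

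*WRKY47* had 2.77 to 4.57 CPM with a median of 3.81 at 25 days, and 2.31 to 4.63 CPM with a median of 3.23 at 16 days. The ages overlapped, and the gene rose by 0.25 (adjusted P = 0.0130, limma). *WRKY18* rose by 0.23 (adjusted P = 0.0145), with 4.27 to 10.2 CPM and a median of 6.33 at 25 days, against 3.84 to 7.36 CPM and a median of 5.40 at 16 days. Its log2 day changes at 0.2 mM were 0.10 in *nrt1.13* and -0.02 in wild type. At 2 mM they were 0.45 and 0.36, and no single condition was called. *WRKY11* fell by 0.16 (adjusted P = 0.00270), in 7 of 12 plants, and its decline was called at 0.2 mM but not at 2 mM.

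Of the 21 members below the filter, 9 had an exact P of at most 0.05 for day, 3 higher and 6 lower. The share of other low genes that pass this test was not computed, and edgeR called 7 of the 18 low members it tested for day (38.9%), beside 35.1% of all 4268 genes below the filter in that fit. *WRKY45* had 0 to 0.740 CPM with a median of 0.471 at 25 days, and 0.659 to 2.11 CPM with a median of 1.28 at 16 days. All 12 older plants were below the mean of the younger plants of their genotype and supply (log2 difference -1.47, exact permutation P = 5e-05), and edgeR gave -1.58 (adjusted P = 2.42e-06). *WRKY69* had 1.90 to 3.44 CPM with a median of 2.75 at 25 days, and 3.16 to 4.99 CPM with a median of 3.91 at 16 days (log2 difference -0.55, exact permutation P = 5e-05), in 12 of 12 plants. A gene opposite *WRKY69* averaged 6.34 CPM, against 3.34 CPM for *WRKY69*, and reads of that gene may be included. *WRKY29* had 1.45 to 2.98 CPM with a median of 2.25 at 25 days, and 2.45 to 5.34 CPM with a median of 3.37 at 16 days (log2 difference -0.52, exact permutation P = 6.25e-05). Older plants were lower in all 3 genes, with a small overlap of the ranges.

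*WRKY60* went the other way, with 1.95 to 4.85 CPM and a median of 3.08 at 25 days, and 1.40 to 3.13 CPM and a median of 2.16 at 16 days. The difference was 0.55 (exact permutation P = 0.00214), and edgeR gave 0.57 (adjusted P = 0.000462). *WRKY46* was higher at 25 days by 0.52 (exact permutation P = 0.00907), and *WRKY51* by 0.62 (exact permutation P = 0.0264), which edgeR did not call (adjusted P = 0.0638). *WRKY26* was lower by 0.36 (exact permutation P = 0.0119), a call that edgeR kept in 18 of 24 fits with 1 library left out. *WRKY40* and *WRKY71*, a gene of shoot branching, were lower with exact permutation P values of 0.0493 and 0.0282, and the edgeR call of *WRKY40* was kept in 8 of 24 such fits. For *WRKY71*, with 3 reads or fewer in 13 of 24 libraries, only a level near 0 can be read. *WRKY38* had no average difference of the days (exact permutation P = 0.684), but the ages stood apart in 4 of 4 combinations, with older plants lower at 0.2 mM and higher at 2 mM.

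Among 9 senescence genes 5 were tested, of which 4 fell at 25 days, beside 36.7% of all genes. At 0.2 mM 2 of the 5 fell, beside 20.2% of all genes, *SAG21* by 0.53 and *PAO* by 0.24. Summed over the 9 genes, 25-day shoots had 236 to 284 CPM at 0.2 mM and 263 to 351 CPM at 2 mM. In 16-day shoots the sum was 355 to 453 CPM at 0.2 mM and 360 to 400.4 CPM at 2 mM. Of the upstream list, 11 of 16 fell at 25 days, beside 36.7% of all genes. In the salicylic acid list, with 7 tested, and in the touch and wounding list, with 5 tested, 2 genes rose and 2 fell with day. Among all genes 25.3% were called higher and 36.7% lower at 25 days. All of these lists were chosen with earlier results of these data known.

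The third comparison asked whether the loss of *NRT1.13* altered these genes. Averaged over the 4 conditions, 2 of 19 members were called in *nrt1.13*, 1 higher and 1 lower, beside 1.7% of all genes, 1.02% higher and 0.682% lower. By edgeR 2 of 37 members were called, beside 1.86% of all genes. In the single conditions none of the 19 was called by limma or edgeR, where limma called 0.258% of all genes in 25-day shoots at 0.2 mM, 0.086% in 25-day shoots at 2 mM, 0.132% in 16-day shoots at 0.2 mM, and 0.0728% in 16-day shoots at 2 mM. In the same order, 2, 4, 1 and 1 of the 19 members had an unadjusted P of at most 0.05, beside 6.1%, 5.47%, 9.73% and 6.96% of all genes. The edgeR fit likewise called 0 of 37 members in each, beside 0.232%, 0.103%, 0.114% and 0.0981% of all genes.

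*WRKY18* was the member that was lower. In 25-day *nrt1.13* it had 5.07, 4.27 and 5.12 CPM at 0.2 mM, against 6.26, 5.58 and 5.40 CPM in wild type, and the genotypes did not overlap. At 25 days and 2 mM it had 7.06, 6.58 and 6.47 CPM in *nrt1.13*, against 9.07, 6.401 and 10.2 CPM in wild type. Here replicate 2 of wild type was below all *nrt1.13* plants. At 16 days and 0.2 mM it had 4.28, 5.41 and 3.84 CPM in *nrt1.13*, against 6.05, 6.27 and 5.14 CPM in wild type. At 16 days and 2 mM it had 5.39, 5.38 and 3.999 CPM in *nrt1.13*, against 7.36, 6.15 and 6.10 CPM in wild type. The genotypes overlapped in the first of these 16-day conditions and stood apart in the second.

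Over the 4 conditions *WRKY18* fell by 0.34 in *nrt1.13* (SE 0.08, adjusted P = 0.0195, limma), and 12 of 12 mutant plants were below the wild-type mean of their condition. The exact permutation P was 0.0003. The call was kept in 24 of 24 fits with 1 library left out, at an adjusted P of up to 0.0497. The change was close in size to that between the supplies, where *WRKY18* fell by 0.33 at 0.2 mM.

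*WRKY57* was the member that was higher. At 25 days and 0.2 mM it had 6.12, 7.43 and 7.61 CPM in *nrt1.13*, against 4.71, 5.03 and 6.48 CPM in wild type. At 25 days and 2 mM it had 5.92, 5.19 and 5.997 CPM in *nrt1.13*, against 4.95, 3.79 and 4.07 CPM in wild type. The genotypes overlapped at 0.2 mM and stood apart at 2 mM. At 16 days and 0.2 mM it had 7.96, 6.17 and 6.58 CPM in *nrt1.13*, against 5.23, 6.52 and 6.36 CPM in wild type. At 16 days and 2 mM it had 6.54, 5.49 and 6.26 CPM in *nrt1.13*, against 5.16, 5.06 and 5.95 CPM in wild type. The younger plants of both genotypes overlapped. *WRKY57* rose by 0.29 (SE 0.07, adjusted P = 0.0274, limma), in 12 of 12 plants, with an exact permutation P of 0.000675. Its call was lost in 12 of 24 fits with 1 library left out, at an adjusted P of up to 0.0643, and without a filter on low values.

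*WRKY15* had the next smallest P among the 19 and was not called. At 25 days and 0.2 mM it had 15.3, 16.4 and 15.5 CPM in *nrt1.13*, against 13.7, 13.5 and 11.2 CPM in wild type. At 25 days and 2 mM it had 18.4, 18.8 and 21.3 CPM in *nrt1.13*, against 16.2, 15.6 and 17.4 CPM in wild type. The genotypes stood apart in both conditions, and at 16 days they overlapped in both. The log2 fold change was 0.17 (SE 0.05, adjusted P = 0.108, limma), with an exact permutation P of 0.00728 that is not adjusted over genes. Without replicate 1 of *nrt1.13* at 0.2 mM and 16 days it was 0.20 and was called (adjusted P = 0.0300).

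**Figure D5:**
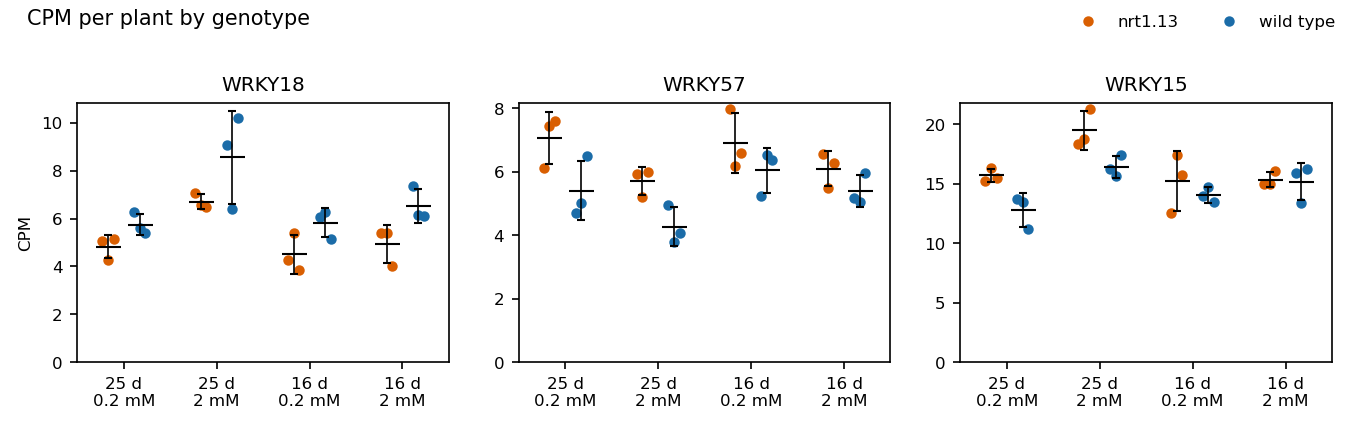
CPM of *WRKY18*, *WRKY57* and *WRKY15* by day and nitrate supply, with 1 point per plant, *nrt1.13* in orange left of wild type in blue, and the mean ± SD of 3 plants. The mutant mean lies below the wild-type mean of *WRKY18* and above that of *WRKY57* in all 4 conditions, and the genotypes of *WRKY15* stand apart at 25 days only.

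Below the filter, *WRKY38* had an exact permutation P of 0.0366 for genotype, with a log2 difference of 0.35, and edgeR did not call it (adjusted P = 0.155). *WRKY42* had 0.903 to 2.28 CPM with a median of 1.38 in *nrt1.13*, and 1.04 to 2.11 CPM with a median of 1.63 in wild type (exact permutation P = 0.0647). *WRKY8* had a median of 1.79 CPM in *nrt1.13*, against 1.82 CPM in wild type. Its log2 difference within supply and day had the opposite sign at 0.07 (exact permutation P = 0.615). Of the lists, none of the upstream and salicylic acid genes was called for genotype. In the senescence list and in the touch and wounding list 1 gene each fell in *nrt1.13*. Among all genes 1.7% were called for genotype, 0.682% lower.

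No member had a called difference of the genotype effect between the supplies or between the days. Between the supplies 0% of all genes were called by limma and by edgeR, and at an unadjusted P of at most 0.05 there were 0 of 19 members by limma and 2 of 37 by edgeR, beside 3.36% and 3.65% of all genes. Between the days 0.0794% of all genes were called by limma and 0.0619% by edgeR, with 1 of 19 and 4 of 37 members at an unadjusted P of at most 0.05, beside 4.86% and 5.1% of all genes. The smallest P values for the supplies were those of *WRKY32*, *WRKY7* and *WRKY1*, with log2 differences of 0.12, 0.13 and -0.10. *WRKY32* ranged over 16.6 to 20.8 CPM with a median of 18.7 in *nrt1.13* and over 16.1 to 20.2 CPM with a median of 18.5 in wild type, and *WRKY7* over 15.3 to 20.7 CPM with a median of 17.4 in *nrt1.13* and over 14.5 to 20.2 CPM with a median of 17.2 in wild type. For the days they were those of *WRKY4*, *WRKY15* and *WRKY7*, with log2 differences of 0.19, 0.21 and 0.18. All of these had an adjusted P of 0.999 (limma), and such a P does not show that the genotypes responded alike.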

How the data were processed

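The authors sequenced stranded libraries of polyadenylated shoot RNA as paired reads of 75 bases, called bases with bcl2fastq 2.17.1.14 (submitters' notes), and mapped the reads to TAIR10 in CLC Genomics Workbench, keeping unique matches with at most 2 mismatches. The deposited signal values are CPM per gene, with column sums of 968394 to 1038371, and the authors state no further scaling. In every library the values were whole multiples of 1 step (100% of values within 0.01 read), so reads were recovered, 23608279 to 46155689 per library, and 3 reads equal 0.0661 to 0.132 CPM. Counting error is covered by no interval here. Of the sample columns 0 were left unmapped. Gene names came from RefSeq for 40 of 40 members. Of the root marker genes, 1 is not reported here.

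All 8 group means were fitted in 1 limma 3.58.1 model (R 4.3.3, trend, 16 residual degrees of freedom) across all genes tested, on log2(CPM + 0.1). Exact permutation tests used numpy 2.4.6 under Python 3.11.15 with 160000 arrangements. The edgeR 4.0.16 quasi-likelihood fit of genes kept by filterByExpr, and leaving out libraries from it, were chosen after seeing the data. Scripts were tested on simulated data. The members and gene lists were chosen with earlier results of these data known. Values, per plant or as lowest, median and highest, are given for the members with the largest called changes (6 for nitrate, 6 for day), the 3 with the smallest P for genotype and each interaction, and members below the filter with a group mean of at least 1 CPM or the 3 smallest exact P. Alternatives were the pseudocount, the filter, the scaling, the trend, edgeR, a replicate block, only the libraries of a comparison, a fold change limit of 1.8 and leaving out each library.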

Additional observations from a re-analysis of the deposited data

Results flagged for a closer look

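For 9 members the nitrate effect differed between the ages by a test of the difference itself, and each value below is the log2 effect of 0.2 over 2 mM at 25 days minus that at 16 days. The 9 join 6 of 19 members by limma (31.6%), beside 47.1% of all genes, with 3 of 18 low members by edgeR. The latter are 16.7%, beside 15.5% of all genes below the filter in that fit. Over its 37 members edgeR called 7 (18.9%), beside 38.9% of all genes. The limma members were *WRKY33* at -1.18, *WRKY25* at -0.61, *WRKY11* at -0.43, *WRKY15* at -0.27, *WRKY1* at -0.26 and *WRKY3* at -0.16. By edgeR, for members below the filter, they were *WRKY38* at -2.34, *WRKY40* at -1.26 and *WRKY45* at -1.48. For *WRKY33*, *WRKY25*, *WRKY11*, *WRKY15* and *WRKY38* the mean at 0.2 mM was below that at 2 mM at both ages and further below at 25 days, while for *WRKY1*, *WRKY3*, *WRKY40* and *WRKY45* it was below at 25 days and above at 16 days. The calls of *WRKY15* and *WRKY3* were kept in 14 and 18 of 24 fits with 1 library left out. Both were lost under median-ratio scaling, quantile scaling and edgeR. Groups of 3 plants were not tested for single plants that stand apart.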

How the results depend on the processing

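For the 24 values of members above the filter that were named by rank (6 each for nitrate and day, 3 each for genotype and the interactions), 563 refits with 1 library left out and 239 under the other alternatives kept direction and call, 13 lost the call, that of *WRKY57* for genotype, 1 gained it and 0 reversed. Calls of some other members were also lost, and not all of these losses are listed. At a fold change of at least 1.8, with the adjusted or with the unadjusted P, 1 member was called for nitrate over all conditions, in 25-day *nrt1.13* and in 25-day wild type, for day at 0.2 mM in each genotype and for the difference between the days, and 0 for day over all conditions, for day in *nrt1.13* at 2 mM and for genotype. With a mean of at least 2 CPM as the filter, of 24 members tested 1 was called for nitrate in 16-day wild type, 1 for day in wild type at 2 mM, 10 for day in *nrt1.13* at 0.2 mM and 5 at 2 mM (49.7% and 9.82% of all genes). Without a filter, of 40 members 18 were called for day over all conditions (45%, beside 41.7% of all genes), 10 and 1 in wild type at 0.2 and 2 mM (34.6% and 3.79% of all genes), 15 in *nrt1.13* at 0.2 mM (31.7% of all genes) and 1 for genotype (1% of all genes). Quantile scaling gave 3 for day in wild type at 0.2 mM and 5 in *nrt1.13* at 2 mM. The edgeR fit added later gave, of 37 members, 1 for nitrate in 16-day wild type, 15 for day over all conditions, 1 for day in wild type at 2 mM, and 13 and 5 in *nrt1.13* at 0.2 and 2 mM. A fit of only the compared libraries gave 1 for nitrate in 16-day wild type and 6 for day in *nrt1.13* at 2 mM. The filter and edgeR settings test more members, and otherwise the cause was not tested.

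Leaving out each library gave 8 to 12 called members for nitrate, 0 to 1 in 16-day wild type, 4 to 7 in 25-day wild type, 5 to 7 in 25-day *nrt1.13*, 9 to 11 for day, 4 to 7 and 0 to 1 in wild type at 0.2 and 2 mM, 4 to 6 and 0 to 3 in *nrt1.13* at 0.2 and 2 mM, 1 to 2 for genotype and 4 to 7 for the difference between the days. The replicate block changed 1 count, day in wild type at 0.2 mM, to 7, and left nitrate at 11, day at 9 and genotype at 2. The deviations of plants with the same number in different groups had a median correlation of 0.0254, with 20 of 84 pairs over 0.1. For plants with different numbers it was 0.00229, with 25 of 168 pairs over 0.1. These values do not settle whether the numbers pair plants, and the main fit does not pair them. Depth limits *WRKY30*, *WRKY31*, *WRKY55*, *WRKY62* and *WRKY71*, at 3 reads or fewer in 12 to 22 libraries.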
